A study of Mus musculus with 2 samples.

Results

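Multiciliated cells of the fallopian tube carry many motile cilia, each built on its own centriole, and a short cascade of regulators turns this programme on. Gmnc (GEMC1) and Mcidas (multicilin) are geminin relatives that bind E2F factors and start the cascade. Ccno, Deup1 and Cdc20b act in the mass production of centrioles, Myb acts early in the same cells, and Foxj1, Rfx2, Rfx3 and Foxn4 are transcription factors that drive genes of centrioles and the motile axoneme. These 10 genes were chosen by symbol for their known place in the cascade, and all 10 were among the 25668 genes listed.

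RNA was sequenced from organoids of mouse fallopian tube (oviduct) epithelium, with 1 control library and 1 Trp53 knockout library. The control organoids, of genotype WT at Trp53, came from a mouse with the Gt(ROSA)26Sor allele tm1(CAG-cas9*,-EGFP)Fezh on a B6J.129(B6N) background (Fezh/J line), in which the broadly active CAG promoter drives Cas9 and EGFP. The knockout organoids carry the genotype label Trp53 KO, and both cultures had the treatment label conditioned medium. The labels do not say how many animals or clones stand behind either library, which guide was used or whether both cultures came from the same animal. With 1 library per genotype no difference below has a replicate check, and no test between genotypes was possible.

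The values are TPM (transcript abundance per length, on a scale that gives every library an equal sum). Over the 21561 genes with a transcript length, reads recovered or estimated from TPM summed to 100893873 for control and 27937165 for knockout organoids. On a transcript of the same length, 1 read weighs 3.365 times as much TPM in knockout organoids, a constant taken from ratios of low values rather than from these sums. Intervals below are exact 95% Clopper-Pearson intervals on the ratio of TPM from these reads, and cover counting error only. Trp53 itself was 83.2 TPM in control organoids and 2.42 TPM in knockout organoids, a ratio of 0.0291 with an interval of 0.0230 to 0.0362. Of 11228 genes whose mean TPM was at least 1, 15.3% were lower in knockout organoids by 2-fold or more on the log2(TPM + 1) scale and 8.35% were higher by as much. The median difference over these genes was −0.17, and 0.03 after quantile normalization, which moved the split to 11.8% lower and 11.5% higher.

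The regulators were at lower levels in the knockout library, apart from Rfx2. TPM was below the control value for 9 of the 10, against 64.0% of the 16534 genes above 0 in either library. Of the 10, 4 (Gmnc, Deup1, Cdc20b and Foxn4) were listed at 0. None of the 10 was at 0 in the control library. Among all genes above 0 in the control library, 15.3% were listed at 0 in the knockout library. The losses were not of 1 size. Ccno, Mcidas and Deup1 were at a few percent of the control level or less, whereas Foxj1 and Rfx3 kept nearly 0.5 of it.

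**Figure D1:**
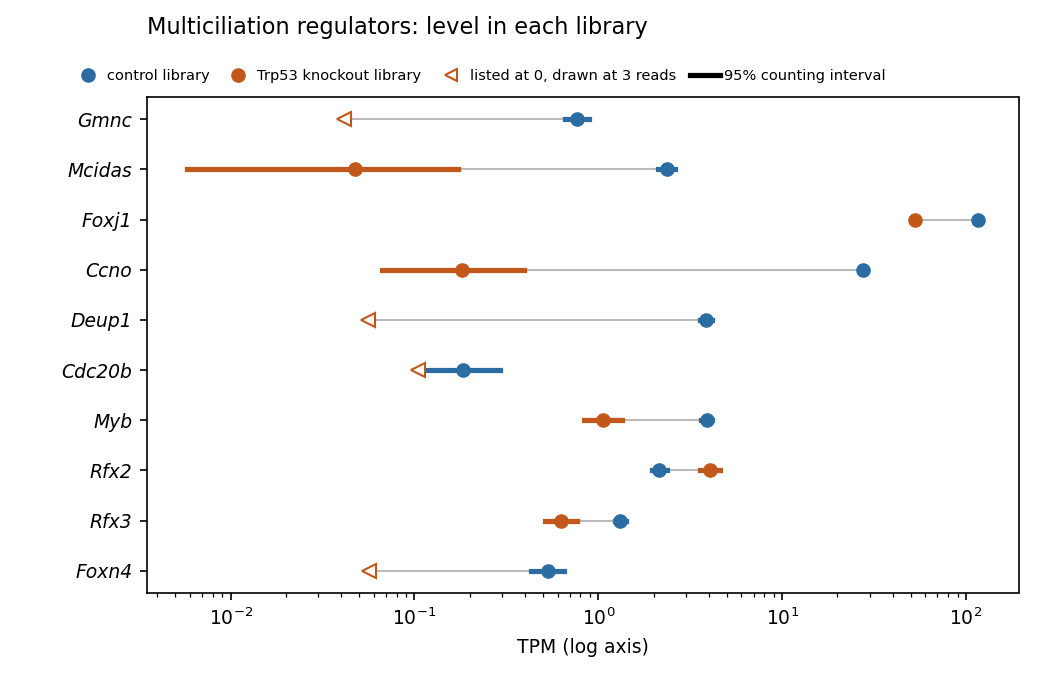
TPM of the 10 regulators in the control (blue) and Trp53 knockout (orange) library on a log axis, with 95% exact Poisson counting intervals as thick bars. Open triangles mark the 4 genes listed at 0 in the knockout library, drawn at the level of 3 reads. Foxj1 stays at 52.7 TPM in knockout organoids and Rfx2 is the only regulator whose orange point lies right of the blue one.

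Promoter sequence was examined because RFX factors, 2 of the regulators, bind the X-box, an inverted repeat with the arm GTTGCC. RefSeq promoters on GRCm38.p6, each running from 250 bases before to 50 after a transcript start, were available for 9 of the 10 genes (11 promoters). None was available for Foxj1, so Foxj1 was not searched. The build differs from that of the expression values, so the coordinates serve only to place the sequence. The arm GTTGCC, searched on both strands, occurred in a promoter of 5 of the 9 (Mcidas, Ccno, Deup1, Rfx2 and Rfx3), against 14.1% of 27025 genes with a promoter in the table. These 5 are shown 5′ to 3′ on the strand of the gene, with the matched letters in capitals (the paired form described after them in Ccno and Deup1, the arm alone in the others).
Ccno, chr13:112987560-112987619 (plus strand): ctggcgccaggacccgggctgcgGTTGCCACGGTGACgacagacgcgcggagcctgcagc
Deup1, chr9:15627897-15627956 (minus strand): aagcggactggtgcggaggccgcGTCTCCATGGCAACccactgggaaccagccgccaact
Mcidas, chr13:112993646-112993705 (plus strand): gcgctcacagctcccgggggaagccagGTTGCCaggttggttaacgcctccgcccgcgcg
Rfx2, chr17:56831092-56831151 (minus strand): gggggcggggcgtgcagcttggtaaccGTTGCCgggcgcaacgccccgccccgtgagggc
Rfx3, chr19:28011118-28011147 (minus strand): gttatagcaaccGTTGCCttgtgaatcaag
In Ccno and Deup1 the arm was followed by a spaced partner: 2 free bases, GG, 2 free bases and AC, read from the arm's 5′ end. The capitals of Deup1 are the reverse complement of this order. That paired form was written down after these sequences had been seen and occurs in 0.851% of all genes with a promoter. Ccno holds it from base −219 to −206 before its start and Deup1, on the opposite strand, from −87 to −74. The other motifs occurred in fewer of the 9. The forkhead core TGTTTA was in 1 (Myb) against 15.1% of all genes, the MYB site AACGG in 3 (Rfx2, Rfx3 and Foxn4) against 19.6%, and the E2F sites TTTCCCGC or TTTGGCGC in 0 against 1.80%. In Rfx3 an AACGG overlaps the GTTGCC arm, and so does the last of 3 in Rfx2. Of the 5 genes with the GTTGCC arm, Rfx2 was higher in the knockout library and the others were lower. Gmnc, Cdc20b, Myb and Foxn4, which have no such arm in these promoters, were lower too. A match describes the letters only, and a part of these letters in the levels was not tested.

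The initiators were scarce in both libraries and close to absent in the knockout. Gmnc, the earliest known switch of the fate, was 0.767 TPM in control organoids, an estimated 186 reads, and was listed at 0 in the knockout library. At the depth of the knockout library its control level would have given an estimated 55.4 reads. Gmnc was therefore at least 18.5-fold lower, taking 3 knockout reads as the floor and the longest coding transcript for its length. The shortest gives a bound of 10.3-fold. Mcidas, which Gmnc switches on, was 2.35 TPM in control organoids, from 333 recovered reads, and 0.0476 TPM in knockout organoids, from 2 reads. Its ratio was 0.0202 with an interval of 0.00244 to 0.0736, and the upper limit for Gmnc, with its longest transcript, was 0.0674. Both geminin relatives were thus below their control level by more than counting error.

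Ccno and Deup1, of the centriole amplification genes, were as low as Mcidas or lower, and their intervals overlap that of Mcidas. Ccno, an atypical cyclin that multiciliated cells need to make enough centrioles, was 27.4 TPM in control organoids (3062 reads) and 0.181 TPM in knockout organoids (6 reads). This is 152-fold lower, with an interval of 69.6 to 414, and its difference of −4.59 on the log2(TPM + 1) scale stood at rank 58 from the lowest of the 11228 genes. Deup1, which builds the deuterosomes on which new centrioles form, was 3.84 TPM in control organoids and listed at 0 in knockout organoids. An estimated 690 control reads put it at least 68.4-fold lower, a bound that drops to 30.1-fold with its shortest coding transcript. Cdc20b, a protein of the same organelle whose gene hosts the miR-449 microRNAs, was 0.184 TPM in the control library from an estimated 18 reads. It was listed at 0 in the knockout library, where its control level would have given an estimated 5.27 reads. The interval for Cdc20b reaches 0.765 of the control level, so a 2-fold loss was not shown at this depth.

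**Figure D2:**
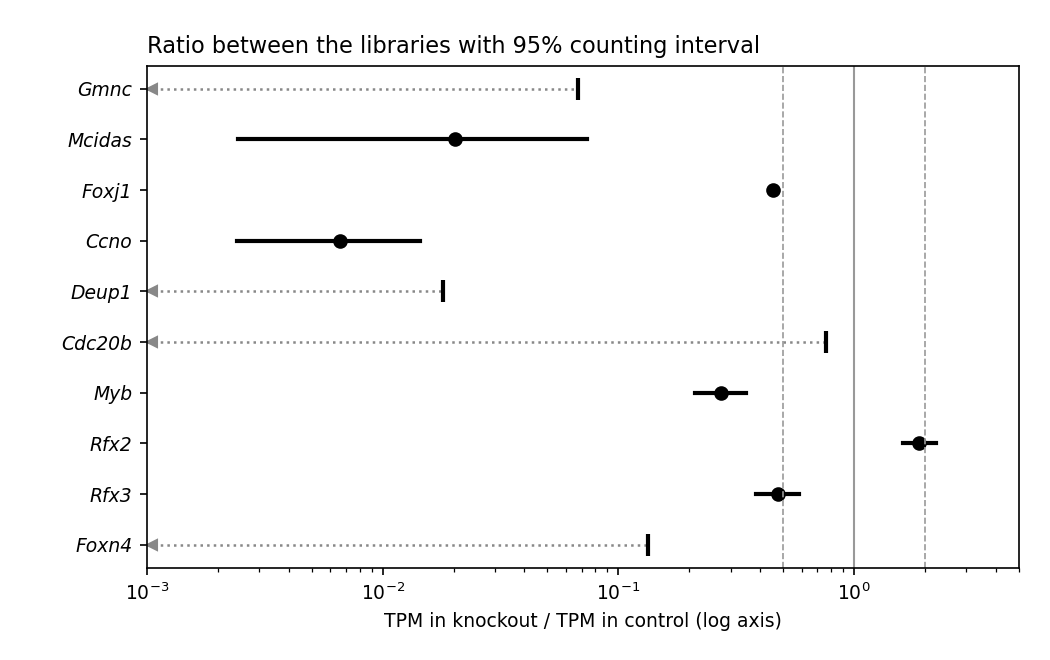
Ratio of knockout to control TPM for each regulator on a log axis. Points with bars are ratios with 95% counting intervals, vertical ticks with dotted arrows are upper limits for genes listed at 0 in the knockout library, and dashed lines mark 2-fold. Ccno, Deup1, Mcidas and Gmnc lie under 0.0736 at their upper limits, Foxj1 and Rfx3 lie near the lower dashed line, and Rfx2 lies above 1.

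The transcription factors of the programme were spread over a wider range. Foxj1, the forkhead factor that commands motile cilium genes, was by far the most abundant regulator, at 116 TPM in control organoids (18090 reads) and 52.7 TPM in knockout organoids (2446 reads). Its ratio of 0.455 had a narrow interval of 0.436 to 0.475, which does not overlap that of Ccno, Mcidas, Deup1 or Myb. Its difference of −1.12 became −0.95, short of 2-fold, when the knockout library was rescaled by the median ratio. Myb, a transcription factor that multiciliating cells express early, was 3.89 TPM in control organoids and 1.06 TPM in knockout organoids, a ratio of 0.273 with an interval of 0.212 to 0.348. Its difference of −1.25 became −0.83 with quantile normalization, and so was also short of 2-fold there. Foxn4, a forkhead factor that works with Foxj1 in multiciliated cells, was 0.531 TPM in control organoids and listed at 0 in knockout organoids. That made it at least 9.45-fold lower from an estimated 95 control reads, and 2.11-fold with its shortest coding transcript.

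The RFX factors, which bind the X-box and act with Foxj1 on cilium genes, went in opposite directions. Rfx2 was 2.15 TPM in control organoids and 4.07 TPM in knockout organoids, a ratio of 1.89 with an interval of 1.61 to 2.22. Its difference of 0.69 stayed under 2-fold, and was 1.06 with quantile normalization. Rfx3 was 1.32 TPM in control organoids and 0.629 TPM in knockout organoids, a ratio of 0.477 with an interval of 0.385 to 0.586. The ratio of Rfx3 reads is exact but their number, taken as 741 and 105, is only known as a common multiple of 247 and 35. With 247 and 35 the Rfx3 interval widened to 0.325 to 0.681. Quantile normalization moved the Rfx3 difference from −0.51 to 0.03, so its direction depends on the scaling, whereas that of Rfx2 did not in any setting tried. The intervals of the 2 RFX factors do not overlap, and Rfx2 moved from sixth to the second place among the regulators in TPM.

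Among the 10 regulators, 6 had a mean TPM of at least 1. Of these, 5 (Ccno, Deup1, Mcidas, Myb and Foxj1) were at least 2-fold lower, where 15.3% of all genes were, and 0 were at least 2-fold higher, where 8.35% of all genes were. A gene that is near 0 in the knockout library passes this filter only through its control level, so this count carries no weight by itself. A count by intervals, without a filter on level, was added after the data were seen. The interval of the ratio lay wholly at or below 0.5 for 7 of the 10 (Gmnc, Mcidas, Foxj1, Ccno, Deup1, Myb and Foxn4), against 16.5% of 16320 genes with any read, and at or above 2-fold for 0, against 7.18%. Cdc20b, Rfx2 and Rfx3 were not in either group, and Foxn4 would leave the lower group with its shortest coding transcript, whose upper limit is 0.646. A gene near 0 in the knockout library meets the interval rule only with enough control reads, so this count too depends on the control level. By position among the 11228 genes, 0.517% had a difference as low as Ccno, 4.34% as low as Deup1, 8.20% as low as Mcidas, 11.8% as low as Myb and 13.3% as low as Foxj1.

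**Figure D3:**
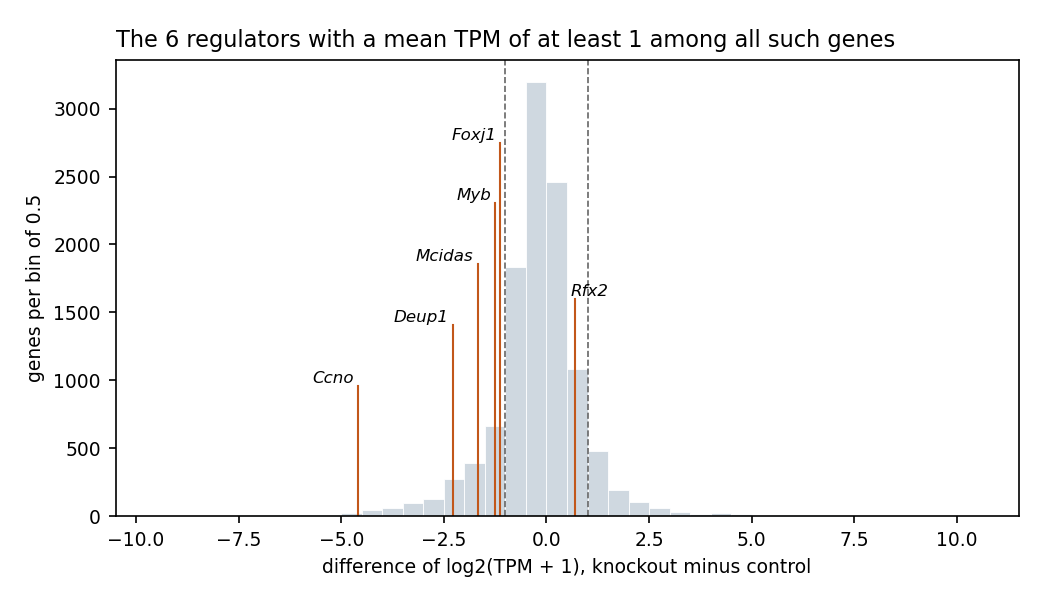
Histogram of the difference of log2(TPM + 1), knockout minus control, over 11228 genes whose mean TPM was at least 1, in bins of 0.5. Orange lines, whose height has no meaning, mark the 6 regulators that pass this level and dashed lines mark 2-fold. Ccno stands in the far left tail, Foxj1 and Myb just beyond the left dashed line, and Rfx2 right of 0.

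The order of the levels differed between the libraries. In the control library Foxj1 came first, followed by Ccno, then Myb and Deup1, whose exact Poisson intervals of 3.64 to 4.16 and 3.56 to 4.14 TPM overlap. Mcidas (2.11 to 2.62 TPM) and Rfx2 (1.95 to 2.36 TPM) overlap as well, and Rfx3, Gmnc, Foxn4 and Cdc20b followed, of which Gmnc (0.661 to 0.885 TPM) and Foxn4 (0.430 to 0.649 TPM) did not overlap with their longest coding transcripts. With its shortest, Foxn4 ran from 0.329 to 0.812 TPM and overlapped Gmnc. In the knockout library the order was Foxj1, Rfx2, Myb, Rfx3, Ccno and Mcidas, with the other 4 at 0. Ccno (0.0664 to 0.394 TPM) and Mcidas (0.00576 to 0.172 TPM) overlap there, and both overlap the upper limit of 0.129 TPM for Cdc20b, so the lower end of this order was not resolved. Ccno stood at 23.7% of the Foxj1 level in the control library and at 0.343% in the knockout library, and Mcidas at 2.03% and 0.0902%. Rfx3 stood at 1.14% and 1.19% of Foxj1, and Rfx2 at 1.86% and 7.73%.

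Ccno, Mcidas and Cdc20b are neighbours on chromosome 13, with no other protein-coding gene between them in the RefSeq annotation of GRCm38.p6. The genes around them did not share the size of the loss. On the Ccno side, Dhx29, an RNA helicase of translation initiation, was 7.74 TPM in control organoids and 4.18 TPM in knockout organoids, and Mtrex, a helicase of the nuclear exosome, was 25.6 and 20.7 TPM. Plpp1, a lipid phosphatase, was 13.2 and 21.6 TPM, and Slc38a9, a lysosomal amino acid transporter, was 1.03 and 0.805 TPM. On the Cdc20b side, Gpx8, a peroxidase of the endoplasmic reticulum, was 169 TPM in control organoids and 79.5 TPM in knockout organoids. Gpx8 overlaps Cdc20b on the other strand, and the strand setting of the counting is not given in the sources used here. In the knockout library Gpx8 had an estimated 1466 reads and Cdc20b was listed at 0, so Gpx8 reads were not counted for Cdc20b there. Whether reads of Cdc20b were counted for Gpx8 or left out cannot be told. Gzma and Gzmk, granzymes of lymphocytes, were listed at 0 in both libraries, and Ddx4, Esm1 and Cspg4b were at or below 0.120 TPM in each. Deup1, Myb and Rfx3 also overlap antisense genes in GENCODE M21, and Gmnc, Mcidas, Foxj1, Ccno, Rfx2 and Foxn4 overlap no other gene there.

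Most regulators have relatives with work outside multiciliated cells, and most of these were not lower by 2-fold in TPM. Exceptions were Mybl1, Ccna1 and the cyclin-family gene Cntd1, which was 0.309 TPM in control organoids and listed at 0 in knockout organoids. By any size, 12 of 24 relatives had a lower TPM in knockout organoids, and 3 of the 24 were at 0 in both libraries. Among genes above 0 in either library, 64.0% were lower by any size. Geminin, encoded by Gmnn, restrains DNA replication licensing and binds Gmnc and Mcidas, and it was 34.0 TPM in control organoids and 76.8 TPM in knockout organoids, a ratio of 2.26 with an interval of 2.12 to 2.41. Cep63, the relative of Deup1 that serves centriole duplication in dividing cells, was 10.5 and 8.57 TPM, with Deup1 at 0 in the knockout library. Cdc20, the mitotic relative of Cdc20b, was 51.0 and 172 TPM. Mybl2, the Myb relative of dividing cells, was 2.40 and 19.3 TPM, a ratio of 8.04 with an interval of 7.27 to 8.91, while Mybl1 was 1.29 and 0.530 TPM. The cyclins Ccna2 and Ccnf were 33.6 and 6.79 TPM in control organoids and 68.6 and 13.4 TPM in knockout organoids. Ccna1, a cyclin of the germ line, was 0.650 TPM in control organoids and listed at 0 in knockout organoids, at least 6.59-fold lower.

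Among the other forkhead genes, Foxj2 was 4.17 and 3.90 TPM, Foxj3 3.62 and 4.67 TPM, Foxn2 5.97 and 5.90 TPM and Foxn3 1.77 and 2.25 TPM. Foxn1, the forkhead factor of thymic and skin epithelium, was 0.178 TPM in control organoids and 3.89 TPM in knockout organoids, a ratio of 21.9 with an interval of 15.2 to 32.4, opposite to Foxn4. The broadly expressed factors Rfx1, Rfx5 and Rfx7 were 4.97, 4.86 and 6.90 TPM in control organoids and 4.15, 3.14 and 6.31 TPM in knockout organoids, and Rfx4, Rfx6 and Rfx8 were listed at 0 in both. Of 18 relatives with a mean TPM of at least 1, 5 were at least 2-fold higher and 0 lower, against 8.35% and 15.3% of all genes. Foxn1 passed this level only through knockout organoids, while Mybl1, Ccna1 and Cntd1, all lower, fell under it. These counts therefore only describe the genes that passed. Of the higher ones, Gmnn counts again among the upstream partners below, and Cdc20 and Ccna2 count again among the mitotic oscillator genes. The median difference of the relatives, 0.11, became −0.08 with no filter on low values, so it has no settled sign.

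**Figure D4:**
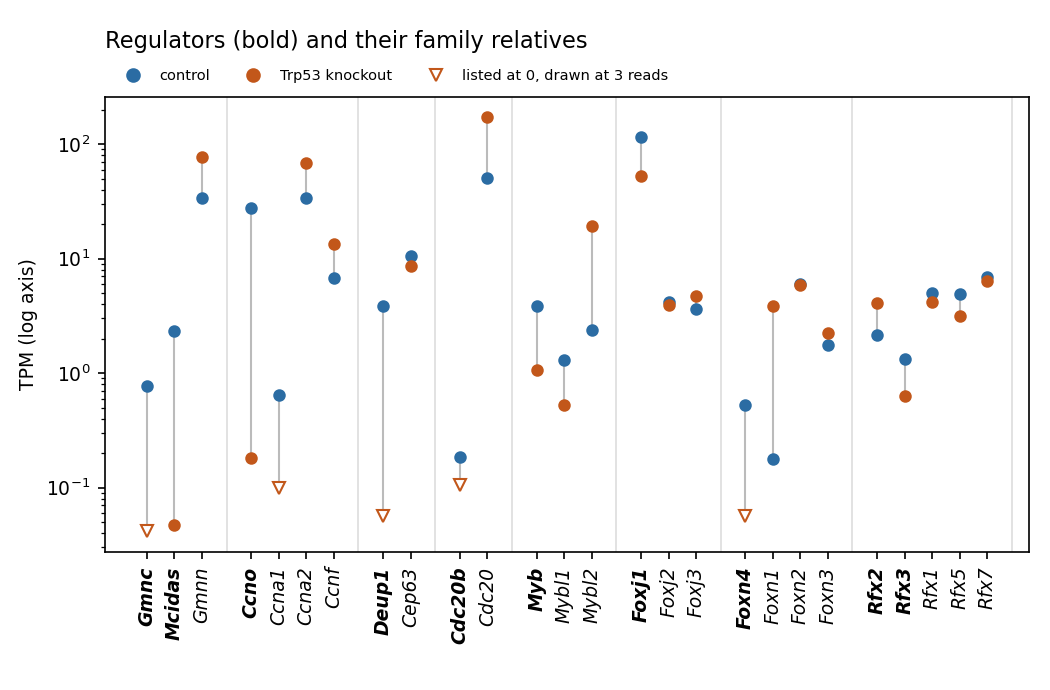
TPM on a log axis for the regulators (bold) and their family relatives, grouped by family, in the control (blue) and Trp53 knockout (orange) library; open triangles are genes listed at 0 in the knockout library, drawn at 3 reads. Gmnn, Ccna2, Cdc20 and Mybl2 have the orange point above the blue one, the reverse of Gmnc, Mcidas, Ccno, Cdc20b and Myb in the same families.

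Upstream partners of the cascade were mixed. E2f4, the E2F factor that Gmnc and Mcidas engage, was 38.4 TPM in control organoids and 42.7 TPM in knockout organoids, and E2f5 was 19.5 and 15.3 TPM. Their dimer partner Tfdp1 was 69.6 and 72.1 TPM, whereas Tfdp2 was 2.34 and 0.371 TPM, a ratio of 0.159 with an interval of 0.118 to 0.210. Trp73, the p53 relative that acts upstream of Foxj1, was 0.403 TPM in control organoids, an estimated 121 reads, and listed at 0 in the knockout library, 11.99-fold lower or more. Of 11 partners and antagonists with a mean TPM of at least 1, 2 (18.2%) were lower (Tfdp2 and Rbl2) and 3 (27.3%) higher (Cdt1, Gmnn and Rbl1). Over all genes 15.3% were lower and 8.35% higher, so the lower count is near that share. The partners had a median difference of 0.05. Cdt1, the licensing factor that geminin inhibits, was 14.4 and 37.2 TPM, and the pocket proteins Rbl1 and Rbl2 were 5.01 and 6.70 TPM in control organoids against 11.9 and 2.59 TPM in knockout organoids. Notch signalling, which holds cells back from the multiciliated fate, had 4 of 13 genes higher and 1 lower, against 8.35% and 15.3% of all genes, with a median of 0.34. With a pseudocount of 5, a mean TPM of 5 or more (fewer genes kept) or a threshold of 4-fold, 2 were higher and 0 lower. The median was 0.15 with that pseudocount and 0.16 at that mean. Jag2, a Notch ligand, was 0.178 and 24.4 TPM, Dll1, another ligand, 0.848 and 5.69 TPM, the Notch target Nrarp 1.75 and 18.5 TPM, and Notch1 itself 2.36 and 7.19 TPM. Hey1, a Notch target repressor, was 2.04 TPM in control organoids and listed at 0 in knockout organoids. Jag2 passed the filter on the mean only through its knockout level, and Hey1 only through its control level.

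Most genes that dividing cells and multiciliating cells both use did not follow Ccno and Deup1 down. Of 31 genes of the centriole amplification machinery, 28 had a mean TPM of at least 1. Of these 1 was lower by 2-fold or more and 0 were higher, against 15.3% and 8.35% of all genes. The median difference was −0.07 beside −0.17 over all genes, but 0.05 after rescaling by the median ratio and 0.30 with quantile normalization. The lower one was Cetn4, a centrin found in ciliated cells, at 8.76 TPM in control organoids and 0.519 TPM in knockout organoids. Ccdc78, a deuterosome protein under that level, was 1.36 TPM in control organoids and listed at 0 in knockout organoids, and it makes 2 lower genes when no filter is used. Plk4, the kinase that starts centriole assembly, was 8.42 and 11.4 TPM, and Sass6, which forms the cartwheel at the core of a new centriole, was 2.20 and 2.79 TPM. Poc1b, Nup188 and Stil followed Cetn4 in size of difference, and each was higher in knockout organoids but under 2-fold on the log2(TPM + 1) scale, as in Poc1b at 3.94 and 8.08 TPM. At that same mean level, of 27 genes of the mitotic oscillator, which multiciliating cells reuse, 7 were higher and 1 was lower. The shares over all genes were 8.35% and 15.3%. The median of the oscillator genes was 0.55. The lower one was Cdkn1a, a p53 target, at 203 and 38.1 TPM, and the higher ones included Cdc25b at 8.43 and 39.2 TPM and Aurka at 39.0 and 128 TPM. At it also, of 20 genes of basal body docking and polarity, 2 were lower and none was higher, and the median of −0.25 became 0.08 with quantile normalization. The lower ones were the planar polarity genes Vangl2, at 6.35 and 0.115 TPM, and Fzd3, at 2.08 and 0.0577 TPM. Cby1 was 38.6 and 19.6 TPM and Fbf1, of the distal appendages, 9.79 and 5.27 TPM.

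The motile cilium genes that Foxj1 and RFX factors drive were low with the regulators. Of 45 such genes whose mean TPM was at least 1, 35 were lower by 2-fold or more and 1 was higher, against 15.3% and 8.35% of all genes. The median difference was −2.16. The filter admits genes near 0 in knockout organoids only through their control level, and 9 of the 45 were at 0 there, so this count and median only describe the genes that passed. The median was −1.35 with no filter and −0.88 with a pseudocount of 5. The 35 became 22 with that pseudocount and 15 at a mean TPM of 5 or more, where fewer of these genes are kept. Of all 71 in the list, measured or not, 66 had a lower TPM in knockout organoids by any size, against 64.0% of all genes above 0 in either library. In the list 23 were at 0 in the knockout library, of which 1 was at 0 in both libraries. Among all genes above 0 in the control library, 15.3% were at 0 in the knockout library. Mlf1 was 33.3 TPM in control organoids and 0.372 TPM in knockout organoids, and Cfap52, an inner protein of ciliary doublets, was 10.8 and 0.171 TPM. Tppp3, a microtubule-binding protein, and Ccdc153, an axonemal protein, were 12.3 and 11.6 TPM in control organoids and listed at 0 in knockout organoids. Some of these genes stayed measurable, such as Cfap126 at 88.6 and 9.82 TPM and Rsph9, of the radial spoke, at 70.8 and 12.4 TPM. The 1 higher gene was the tubulin Tubb4b, at 567 and 1325 TPM, which is not restricted to cilia.

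**Figure D5:**
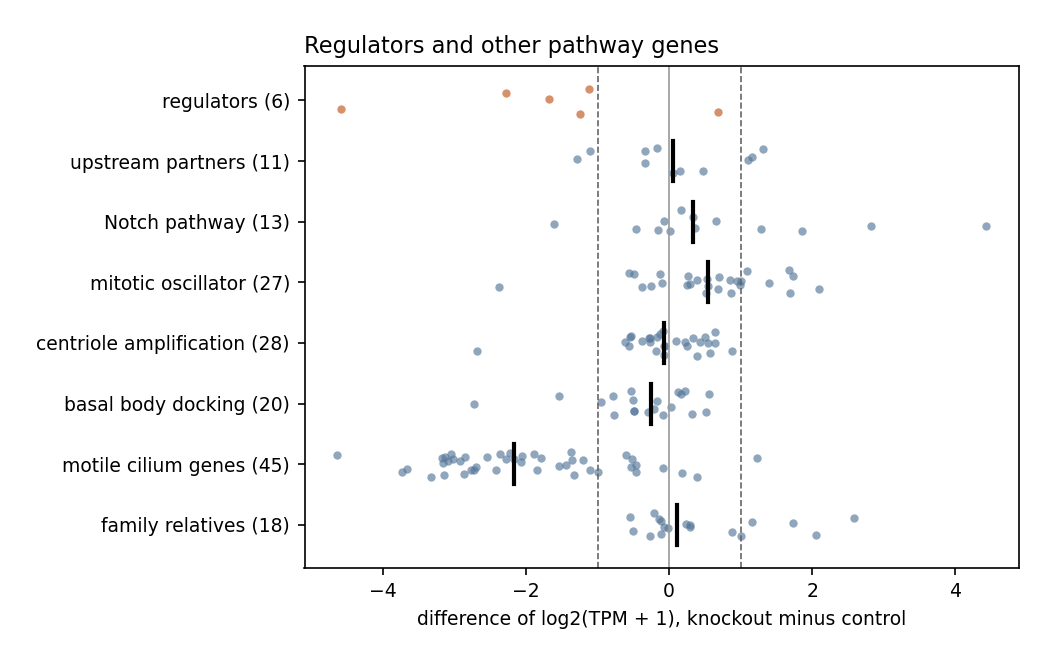
Difference of log2(TPM + 1), knockout minus control, for each gene with a mean TPM of at least 1 in the regulators and 7 lists of the pathway (number of genes in brackets). Black bars are medians of the 7 lists, dashed lines mark 2-fold, and vertical scatter within a row has no meaning. The motile cilium genes centre at −2.16, while the centriole amplification genes centre at −0.07.

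Markers of other cell types moved as well, and their counts stand beside 15.3% lower and 8.35% higher over all genes. The filter on the mean admits genes near 0 in 1 library only through the other, as with Krt5. These counts therefore only describe the genes that passed. Multiciliated cell markers had 14 of 17 lower and 1 higher. That list holds Foxj1 and shares most of its genes with the motile cilium list, so this is largely a recount. In it 12 of 25, Tppp3 and Ccdc153 among them, were listed at 0 in knockout organoids, against 15.3% of genes above 0 in control organoids. The summed level of the multiciliated markers was 1362 and 1651 TPM, most of it Tubb4b in knockout organoids. Basal and squamous epithelium markers had 13 of 17 higher and 0 lower, with a summed level of 267 TPM in control organoids and 6679 TPM in knockout organoids. Of all 18 in that list, 1 had a lower TPM in knockout organoids by any size, and 1 was at 0 in both libraries. Krt5, a keratin of basal cells, was 0.130 and 1543 TPM, Krt13 4.29 and 1140 TPM, Krt14 0.129 and 200.4 TPM, and Krt6a 0.125 and 106 TPM. Secretory cell markers had 6 of 15 lower and 2 higher, with summed levels of 28740 and 17370 TPM. Lcn2 alone was 15660 and 2342 TPM, and without it the sum was 13083 TPM in control organoids and 15024 TPM in knockout organoids. That remainder holds Krt19, at 2313 and 8176 TPM. By any size, 12 of the 16 secretory markers had a lower TPM in knockout organoids, against 64.0% of genes above 0 in either library. The largest differences were those of the complement gene C3 at 2231 and 124.5 TPM, Pigr at 556 and 64.6 TPM and Ovgp1, the oviduct glycoprotein, at 7.44 and 0.192 TPM, and of Sprr2f, higher at 22.3 and 168 TPM. The summed level of 10 stromal markers was 0.113 and 0.0172 TPM and that of 7 endothelial markers 0.181 and 0.0674 TPM. The 10 immune markers summed to 291.5 and 16.5 TPM, of which Lyz2 was 257 and 0 TPM, Cd68 25.5 and 16.0 TPM and Csf1r 8.78 and 0.420 TPM, while Ptprc, the pan-leukocyte marker, was 0.0886 and 0.0110 TPM. The 7 smooth muscle markers summed to 18.9 and 30.5 TPM, with Acta2 at 1.07 and 17.8 TPM, Smtn at 17.2 and 12.5 TPM and Myh11 at 0.00254 and 0 TPM. The part of these shifts in the regulators' values was not tested, and in whole organoids fewer multiciliated cells and less RNA per multiciliated cell cannot be told apart.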

How the data were processed

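RNA came from organoids, and strand-preserving libraries were sequenced as paired-end reads, per the labels' protocols. The authors deposited TPM for 25668 gene symbols per library. Per the submitters' processing notes reads were placed on GRCm39. Which aligner, counter and annotation were used is not given in the sources used here.

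TPM keeps no depth, so reads were recovered. In 1676 genes of low level (under 0.5 TPM in each library, none at 0), 64.9% of knockout to control ratios matched, to 0.001%, a fraction of small whole numbers (the smaller at most 12) multiplied by the same constant. Gene lengths were those of protein-coding transcripts in GENCODE M21, on an earlier build. With the longest of them, 30.9% of 10338 genes with over 50 reads in both libraries gave reads no further than 0.02 from a whole number, and for other genes reads are estimates. A single read on a 1000-base transcript thus equals 0.0168 TPM for control and 0.0565 TPM for knockout. Reads were recovered exactly for Mcidas, Foxj1 and Ccno. For Myb, Rfx2 and Rfx3 the ratio of reads was exact and their number the nearest multiple to the estimate, and for Gmnc, Deup1, Cdc20b and Foxn4 it was estimated from length.

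Differences are log2(TPM + 1), knockout minus control, called at 2-fold where the mean of both TPM is 1 or more. Where a gene is listed at 0, the bound uses a floor of 3 reads in that library. These bounds and intervals describe counting error alone, as PCR copies were not marked by molecular identifiers. The members, 7 pathway lists and 7 marker lists were chosen with earlier results of these data known. Named genes are the members, Trp53, their nearest relatives and the 5 neighbours on either side on chromosome 13. Also named are Trp73, E2f4, E2f5, Gmnn, Plk4 and the 4 largest differences of each list. Tfdp1, Rbl2, Cntd1, Ccdc78, Lcn2, Krt19, Notch1, Sass6, Cfap126, Rsph9, Tubb4b, Ptprc and Myh11 were added after their values were seen. Recovery of the read scale and the calls was tested on simulated data. Python 3.11.15, numpy 2.4.6, pandas 2.3.3 and scipy 1.17.1 were used.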

Additional observations from a re-analysis of the deposited data

How the results depend on the processing

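The 5 of 6 regulators counted as lower became 2 of 6 with a pseudocount of 5, against 8.28% of all genes lower. At a threshold of 4-fold they were 2 of 6, against 5.89%. When only genes averaging 5 TPM or more were kept, 2 regulators remained and 2 were lower, against 12.9%. After rescaling by the median ratio 4 of 7 regulators were lower, which left out Foxj1, with 0 higher, against 12.9% and 10.6% of all genes. Quantile normalization gave 4 of 6, leaving out Myb, and there 1 regulator (Rfx2) was higher, against 11.8% and 11.5% of all genes. Over all genes the 1715 lower and 937 higher became 930 and 563 with a pseudocount of 5 and 661 and 267 at 4-fold. The lower genes were 1091 of 8451 at a mean TPM of at least 5. They were 2688 of 16320 by counting intervals wholly beyond 2-fold, a rule added after the data were seen. The 7 pathway lists together had 42 lower and 17 higher genes of 157, or 26.8% and 10.8%, against 15.3% and 8.35% of all genes. They had 25 lower and 12 higher with a pseudocount of 5, and 28 lower and 5 higher at 4-fold. At a mean TPM of at least 5, where fewer genes are kept, 16 were lower and 14 higher. Their median of −0.16 was −0.02 after rescaling, 0.011 at a mean TPM of at least 5 and 0.14 with quantile normalization. The median of the relatives, 0.11, was −0.076 with no filter, and that of basal body docking, −0.25, was 0.079 with quantile normalization. The cause of these shifts was not tested. For each regulator the difference kept its sign under 6 settings, except Rfx3, which ranged from −1.07 to 0.03. Ccno ranged from −7.25 to −2.65 and Foxj1 from −1.14 to −0.95. No paired analysis was possible because each genotype has 1 library. The depth of the knockout library limits Cdc20b, Foxn4 and Gmnc.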
